A study of Mus musculus with 6 samples.

Results

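The RNAs described here are noncoding RNAs of the mouse: the small nucleolar RNA (snoRNA) host genes Gas5, Snhg1, Snhg3, Snhg5, Snhg6, Snhg8 and Snhg12, the nuclear RNAs Malat1 and Neat1, and Rmrp, the RNA of the RNase MRP enzyme. They were chosen by symbol, and 9 of the 10 symbols had a row among the 21240 genes of the count table. Snhg5 had no row, so its level was not analysed here. All 9 passed the filter that left 11080 genes for testing. The cells were NMuMG cells, an epithelial line from the normal mouse mammary gland, and stranded total RNA was sequenced from 3 groups of 2 biological replicates. In all groups the cells had first spent 6 h in medium that lacked both serum and insulin. The vehicle group (veh) then received for 2 h the solvent of the ligand, a BSA solution whose buffer is labelled both as HCl and as Tris-HCl. The other groups received 5 ng/ml of the cytokine TGFβ1 for 2 h (TGFb2h) or 12 h (TGFb12h). The 12 h group has no vehicle group of its own time, so 12 h of TGFβ1 cannot be told apart from a longer stay in that medium. Nothing more is given on how the replicates were separated, so p-values measure the spread between these libraries.

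A snoRNA host gene is transcribed into a spliced RNA whose introns carry snoRNAs. The introns are trimmed to free the snoRNAs, which guide the chemical modification or cleavage of ribosomal RNA, whereas the spliced exons of hosts such as Gas5 are translated poorly and removed by nonsense-mediated decay when ribosomes reach them. Many of these RNAs begin with a terminal oligopyrimidine (TOP) tract, a C followed by pyrimidines, which ties their fate to growth signalling through mTOR. Malat1 is an abundant RNA of nuclear speckles, Neat1 is the scaffold of the nuclear bodies called paraspeckles, and Rmrp is the RNA subunit of RNase MRP, which cleaves the precursor of ribosomal RNA.

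Sequences around the start sites are shown because many host RNAs begin with a TOP tract. A search pattern for it was met at some of these starts and not at others. RefSeq promoter windows on GRCm38.p6, from 250 bases before to 50 bases after each annotated start, were matched for Gas5 (with 2 start sites), Snhg1, Snhg3, Snhg5, Snhg8, Snhg12 and Malat1. Snhg6, Neat1 and Rmrp had no entry. A TOP start was searched on the strand of the gene as a C followed by at least 4 pyrimidines, with the C within 10 bases of the start, and such a tract was found in 30.7% of the 32851 windows of all genes. It was found at 1 start of Gas5 and at the starts of Snhg3, Snhg5, Snhg8 and Snhg12. The pattern was not met at the starts of Snhg1 and Malat1, and where these RNAs begin in the cells was not tested. The following stretches hold 30 bases on either side of the start, with the tract in capitals where there was one. They lie at chr1:161035136-161035195 on the plus strand (Gas5), chr3:123508307-123508366 on the minus strand (Snhg8), chr4:132308648-132308707 on the plus strand (Snhg12), chr4:132353657-132353716 on the minus strand (Snhg3) and chr19:8723457-8723516 on the plus strand (Snhg1).
Gas5: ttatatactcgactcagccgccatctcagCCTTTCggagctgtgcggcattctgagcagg
Snhg8: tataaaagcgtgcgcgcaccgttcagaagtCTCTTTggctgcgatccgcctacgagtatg
Snhg12: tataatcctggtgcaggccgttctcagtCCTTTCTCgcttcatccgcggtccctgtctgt
Snhg3: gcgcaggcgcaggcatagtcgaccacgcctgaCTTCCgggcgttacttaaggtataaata
Snhg1: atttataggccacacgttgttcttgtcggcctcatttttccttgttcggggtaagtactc

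Counted from its first C, the tract began on the annotated start itself in Snhg8. It began 1 base before the start in Gas5 and 2 bases before it in Snhg12. In Snhg3 it began 2 bases after the start, and in Snhg5 9 bases after it. On both strands of the whole windows, the AP-1 motif TGANTCA, present in 7.81% of all windows, and the E-box CACGTG, present in 7.15%, were found in no window of these genes. The short element CAGAC, bound by SMAD proteins and present in 49.6% of all windows, was found once in each window of Gas5 and 3 times in that of Snhg12. The short element TGACG, bound by CREB and ATF proteins and present in 20.8%, was found in the TOP window of Gas5 (2 times), in Snhg12 (2 times), in Snhg8 (3 times) and in Malat1 (3 times). These matches are letters in a window and not measured binding.

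To show what a host intron carries, Snord47 is printed as an example. It is a box C/D snoRNA within Gas5 at chr1:162968213-162968289 on the plus strand of NCBIM37, the build of the mapped reads. Its boxes C (TGATGA) and D (CTGA) are in capitals, and 71.1% of the 346 annotated snoRNA genes whose symbols begin with Snord hold both within 20 bases of their ends.
Snord47: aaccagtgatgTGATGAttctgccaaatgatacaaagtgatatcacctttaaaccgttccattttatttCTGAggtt

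Rmrp is shown whole, 271 bases at chr4:43505660-43505930 on the minus strand of NCBIM37, because its counts per base were the highest of the set in TGFb2h and TGFb12h and in 1 of the 2 veh libraries.
Rmrp: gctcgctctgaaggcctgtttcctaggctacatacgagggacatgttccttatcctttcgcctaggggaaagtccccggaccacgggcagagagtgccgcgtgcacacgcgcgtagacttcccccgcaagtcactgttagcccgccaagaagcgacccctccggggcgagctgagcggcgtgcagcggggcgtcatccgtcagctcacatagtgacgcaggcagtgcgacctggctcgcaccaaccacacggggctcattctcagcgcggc

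The libraries held 14705886 to 23786993 counts. Levels are given as CPM, counts scaled to a common library total, after correction by TMM factors of 0.961 to 1.07. The keratins Krt8 and Krt18 and the adhesion gene Cdh1 were expressed, and the 10 epithelial markers summed to 5024 to 5863 CPM in veh, 6513 to 6521 in TGFb2h and 10369 to 10413 in TGFb12h, but Epcam was near 0 in every group (0.181, 0.177 and 0.528 CPM). Krt8 and Krt18 carried the higher sum at 12 h (log2FC 1.63 and 1.53), while Krt19 fell (-1.95, adjusted p = 0.000103) and the median over the 5 markers tested was -0.07. The 7 fibroblast markers summed to 3.50 to 4.65 CPM in veh, 9.12 to 9.45 in TGFb2h and 14.8 to 16.0 in TGFb12h, with Thy1 at 0 in all libraries, and Col1a1 rose (log2FC 2.59 at 2 h and 3.51 at 12 h). The 8 endothelial and leukocyte markers summed to 5.88 to 8.11 CPM with Cd3e at 0. The 2 libraries of TGFb2h differed from each other by a median of 0.220 on the log2 scale over all genes, against 0.152 in veh and 0.134 in TGFb12h. TGFb2h replicate 2 held the lowest level of Malat1 and the highest levels of Rmrp and Snhg8 among the 6 libraries, so the values at 2 h are also given without it. The part of these markers in the results was not tested.

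At 12 h, the host RNAs Gas5 and Snhg1 were higher than with vehicle and Neat1 was lower. Of all genes, 21.8% were higher and 21.5% lower there. At 2 h 0 of 9 members were called by the main fit (edgeR without a block), where 15.2% of all genes were. DESeq2 called Rmrp higher, where it called 18.9% of all genes. The fit with the replicate number as a block called Rmrp higher and Snhg1 and Snhg3 lower, where it called 29.1% of all genes. The pairing of that block was read from these same counts. At 2 h the host RNAs other than Snhg8 had log2 fold changes (log2FC) below 0. Between 2 h and 12 h, Gas5, Snhg1, Snhg6 and Snhg12 rose together, with log2FC between 0.64 and 0.86. Of all genes, 15.2% were higher there. The calls at 12 h, against vehicle and against 2 h, did not hold without TGFb12h replicate 1. Malat1 held 2.64% to 5.34% of all counts and was not called by the main fit in any comparison. It was called higher at 12 h than at 2 h by DESeq2 and with the block. Rmrp had the largest log2FC of the set, 1.05 at 2 h, which was not called by the main fit (adjusted p = 0.0794). Without TGFb2h replicate 2 it was 0.52 and no longer the largest.

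Gas5 (Entrez 14455), a host whose spliced RNA is known to accumulate in growth-arrested cells, had 169 and 159 CPM in the veh libraries, 153 and 152 CPM in TGFb2h and 254 and 223 CPM in TGFb12h. Both 12 h libraries lay above all others, and both 2 h libraries lay just below veh. Its log2FC was -0.10 at 2 h (SE 0.106, adjusted p = 0.572) (-0.09 without TGFb2h replicate 2) and 0.54 at 12 h (SE 0.106, adjusted p = 0.00670), each from the quasi-likelihood test of edgeR with adjustment by the Benjamini-Hochberg method over all genes tested, as are all adjusted p-values here unless another tool is named. From 2 h to 12 h the log2FC was 0.64 (SE 0.106, adjusted p = 0.00498). The 12 h call was lost without veh replicate 2 (0.50, adjusted p = 0.0545) and without TGFb12h replicate 1 (0.43, adjusted p = 0.0616), and the adjusted p ranged from 9.24e-05 to 0.0616 over all alternatives. The rise from 2 h to 12 h was lost without TGFb12h replicate 1 (0.54, adjusted p = 0.0506), which was the highest adjusted p of any alternative.

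Snhg1 (83673), the host of a cluster of box C/D snoRNAs, had 143 and 119 CPM in veh, 116 and 93.4 CPM in TGFb2h and 203 and 175 CPM in TGFb12h. The 3 groups did not overlap, with 2 h lowest and 12 h highest. Its log2FC was -0.33 at 2 h (SE 0.156, adjusted p = 0.219), 0.53 at 12 h (SE 0.155, adjusted p = 0.0316) and 0.86 between 2 h and 12 h (SE 0.156, adjusted p = 0.00720). In the fit with the replicate number as a block, the lower level at 2 h was called (-0.33, adjusted p = 0.0243), and it was -0.18 without TGFb2h replicate 2 and -0.51 without replicate 1. The call at 12 h was lost with total counts in place of TMM factors (0.40, adjusted p = 0.0589), without veh replicate 2 (0.40, adjusted p = 0.171), without TGFb12h replicate 1 (0.41, adjusted p = 0.201) and without TGFb12h replicate 2 (0.62, adjusted p = 0.0799), within a range of 0.000807 to 0.201 over all alternatives. The rise from 2 h to 12 h was lost only without TGFb12h replicate 1 (0.74, adjusted p = 0.0714).

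Snhg6 (73824) and Snhg12 (100039864) are host RNAs with fewer counts and the same order of groups. Snhg6 had 15.8 and 12.9 CPM in veh, 12.5 and 10.7 CPM in TGFb2h and 21.8 and 18.3 CPM in TGFb12h. Snhg12, which hosts the H/ACA snoRNAs Snora16a, Snora44 and Snora61 and the box C/D snoRNA Snord99, had 17.3 and 12.9 CPM in veh, 11.8 and 10.6 CPM in TGFb2h and 19.3 and 19.9 CPM in TGFb12h. For both, the 3 groups did not overlap. Both rose from 2 h to 12 h, Snhg6 by a log2FC of 0.79 (SE 0.182, adjusted p = 0.0174) and Snhg12 by 0.81 (SE 0.183, adjusted p = 0.0161).

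Against vehicle neither Snhg6 nor Snhg12 passed the test. Snhg6 had log2FC of -0.31 at 2 h (adjusted p = 0.323) and 0.48 at 12 h (adjusted p = 0.0728), and with the replicate block the 12 h value was called (0.48, adjusted p = 0.0138). Snhg12 had -0.43 at 2 h (adjusted p = 0.180) and 0.38 at 12 h (adjusted p = 0.139). These values moved with single libraries. Without veh replicate 1 the log2FC of Snhg6 was -0.15 at 2 h and that of Snhg12 -0.20 at 2 h and 0.60 at 12 h, and without veh replicate 2 they were -0.45, -0.63 and 0.18. Without TGFb2h replicate 2, Snhg6 was at -0.19 and Snhg12 at -0.35 at 2 h. The rise of Snhg6 from 2 h to 12 h was lost without TGFb2h replicate 2 (0.67, adjusted p = 0.0536), TGFb12h replicate 1 (0.65, adjusted p = 0.130) or TGFb12h replicate 2 (0.90, adjusted p = 0.0592). That of Snhg12 was lost without TGFb12h replicate 1 (0.82, adjusted p = 0.0901) or replicate 2 (0.78, adjusted p = 0.0987). Over all alternatives the adjusted p of this comparison ranged from 0.00131 to 0.130 for Snhg6 and from 0.00247 to 0.0987 for Snhg12.

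Snhg3 and Snhg8 departed from this order. Snhg3 (399101), which hosts the H/ACA snoRNAs Snora73a and Snora73b, had 16.5 and 18.3 CPM in veh, 13.9 and 9.73 CPM in TGFb2h and 13.1 and 11.5 CPM in TGFb12h. Both treated groups lay below veh and overlapped each other. Its log2FC was -0.56 at 2 h (SE 0.208, adjusted p = 0.129), -0.50 at 12 h (SE 0.207, adjusted p = 0.0948) and 0.06 between them (SE 0.208, adjusted p = 0.847). With the replicate block, Snhg3 was called lower at both times (-0.57, adjusted p = 0.0397, and -0.51, adjusted p = 0.0357). At 12 h it was also called with total counts, with only the 2 groups in the fit and without either library of TGFb2h, and over all alternatives the adjusted p ran from 0.0314 to 0.331. At 2 h the range was 0.0297 to 0.368, and the log2FC was -0.32 without TGFb2h replicate 2 and -0.86 without replicate 1.

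Snhg8 (69895) had 31.7 and 35.3 CPM in veh, 34.7 and 53.4 CPM in TGFb2h and 33.7 and 38.2 CPM in TGFb12h. Only TGFb2h replicate 2 stood apart from the other libraries. The log2FC was 0.39 at 2 h (SE 0.210, adjusted p = 0.268) and 0.05 without that library, and 0.10 at 12 h (SE 0.210, adjusted p = 0.729). With TGFb2h replicate 2 as the sole 2 h library, Snhg8 was called higher at 2 h (0.65, adjusted p = 0.0240, within a range of 0.0240 to 0.886).

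**Figure D1:**
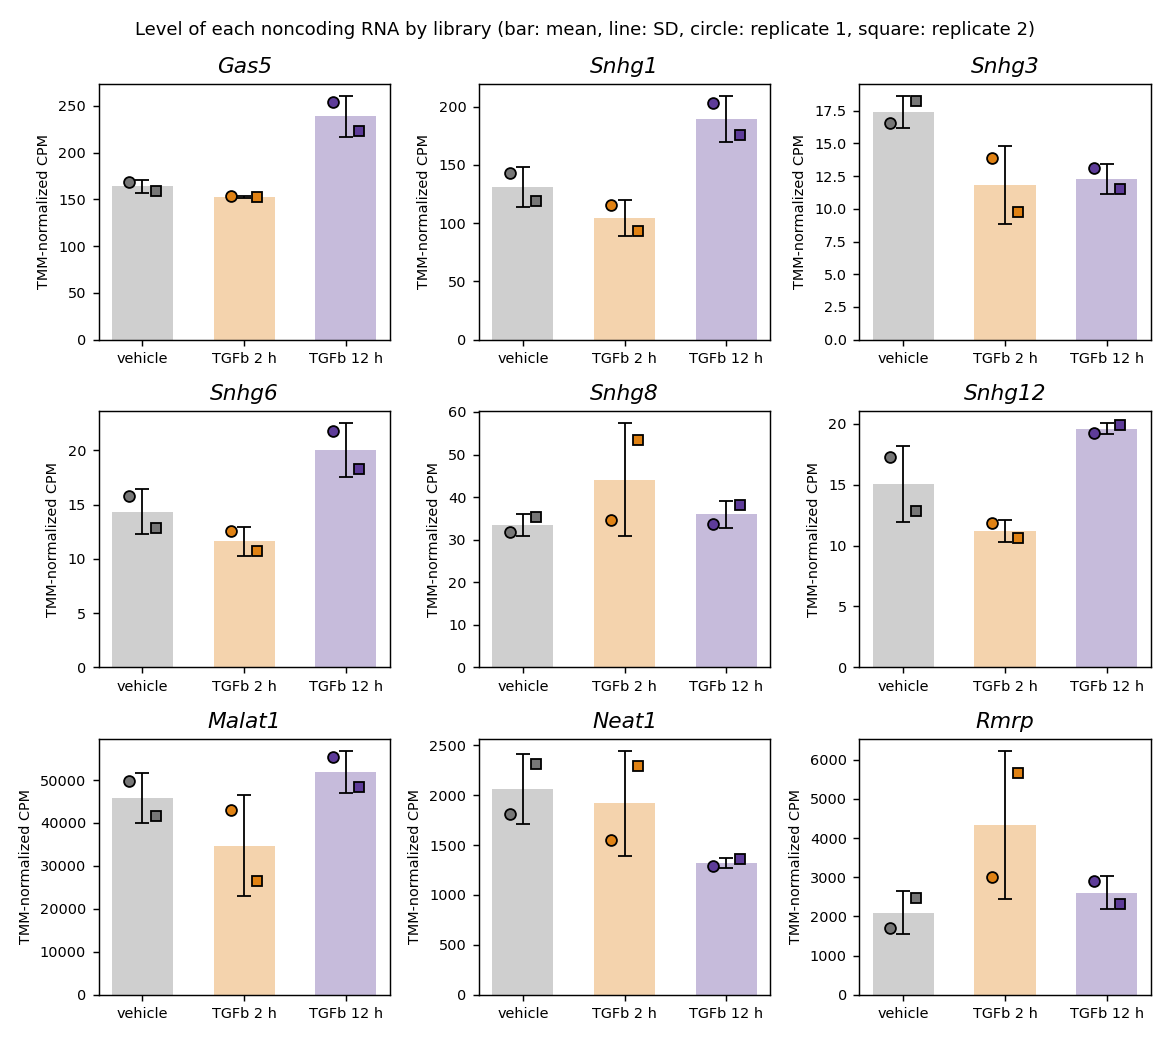
Level of each of the 9 RNAs in the 6 libraries, in TMM-normalized CPM on linear axes that start at 0, for vehicle, TGFβ1 for 2 h and TGFβ1 for 12 h. Bars are means, lines the SD (n = 2), circles replicate 1 and squares replicate 2. Gas5, Snhg1, Snhg6 and Snhg12 were highest at 12 h, Neat1 was lowest at 12 h, and the 2 libraries at 2 h lay far apart for Malat1, Rmrp and Snhg8.

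Malat1 (72289), which took the most counts of the set, had 49866 and 41720 CPM in veh, 43061 and 26444 CPM in TGFb2h and 55302 and 48325 CPM in TGFb12h. Its share of all counts was lowest in TGFb2h replicate 2 at 2.64% (exact Clopper-Pearson interval at 95% confidence 2.63% to 2.64%, counting error only) and highest in TGFb12h replicate 1 at 5.34% (5.33% to 5.35%). The log2FC was -0.40 at 2 h (SE 0.239, adjusted p = 0.321), 0.18 at 12 h (SE 0.239, adjusted p = 0.582, between 0.05 without veh replicate 2 and 0.31 without veh replicate 1) and 0.58 between 2 h and 12 h (SE 0.240, adjusted p = 0.109). The 2 h value rested on 1 library, since the log2FC was -0.09 without TGFb2h replicate 2 and -0.81 without replicate 1 (adjusted p = 0.837 and 0.0387, the extremes over all alternatives). In the comparison of 12 h with 2 h, Malat1 was called with the replicate block (0.61, adjusted p = 0.0103), without TGFb2h replicate 1 (0.97, adjusted p = 0.0132) and by DESeq2 (0.58, adjusted p = 0.0409), while without TGFb2h replicate 2 the log2FC was 0.27, and the highest adjusted p of any alternative was 0.382.

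Neat1 (66961), whose longer form builds paraspeckles, had 1815 and 2309 CPM in veh, 1545 and 2287 CPM in TGFb2h and 1288 and 1357 CPM in TGFb12h. Both 12 h libraries lay below the other 4, while veh and 2 h overlapped. It fell at 12 h, with a log2FC of -0.64 (SE 0.208, adjusted p = 0.0454), and had a log2FC of -0.11 at 2 h (SE 0.207, adjusted p = 0.776, and -0.42 without TGFb2h replicate 2). The 12 h call was lost without veh replicate 2 (-0.46, adjusted p = 0.200), TGFb12h replicate 1 (-0.62, adjusted p = 0.185) or TGFb12h replicate 2 (-0.69, adjusted p = 0.152), and the lowest adjusted p of any alternative was 0.00256. From 2 h to 12 h the log2FC was -0.53 (SE 0.208, adjusted p = 0.0914). That difference was called with the replicate block (-0.51, adjusted p = 0.00958), was -0.23 without TGFb2h replicate 2 and had a highest adjusted p of 0.362.

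Rmrp (19782) had 1705 and 2482 CPM in veh, 2997 and 5667 CPM in TGFb2h and 2903 and 2317 CPM in TGFb12h. Both 2 h libraries lay above all 4 others, but the second exceeded the first by 0.92 on the log2 scale, a gap between replicates that 3.75% of all genes tested surpassed at 2 h. The log2FC at 2 h was 1.05 (SE 0.324, adjusted p = 0.0794). It was called with the replicate block (1.03, adjusted p = 0.0111), by DESeq2 (1.04, adjusted p = 0.00469), without a filter on low counts (1.05, adjusted p = 0.0499) and without TGFb2h replicate 1 (1.42, adjusted p = 0.00755). Without TGFb2h replicate 2 it was 0.52, and the highest adjusted p of any alternative was 0.315.

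At 12 h the log2FC of Rmrp was 0.32 (SE 0.321, adjusted p = 0.461), 0.07 without veh replicate 1 and 0.61 without veh replicate 2, and the 12 h and veh libraries overlapped. Between 2 h and 12 h it was -0.73 (SE 0.322, adjusted p = 0.127), with the replicate block -0.65 (adjusted p = 0.0482), without TGFb2h replicate 1 -1.12 (adjusted p = 0.0108) and without TGFb2h replicate 2 -0.20 (adjusted p = 0.567), the last 2 being the lowest and highest of all alternatives.

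**Figure D2:**
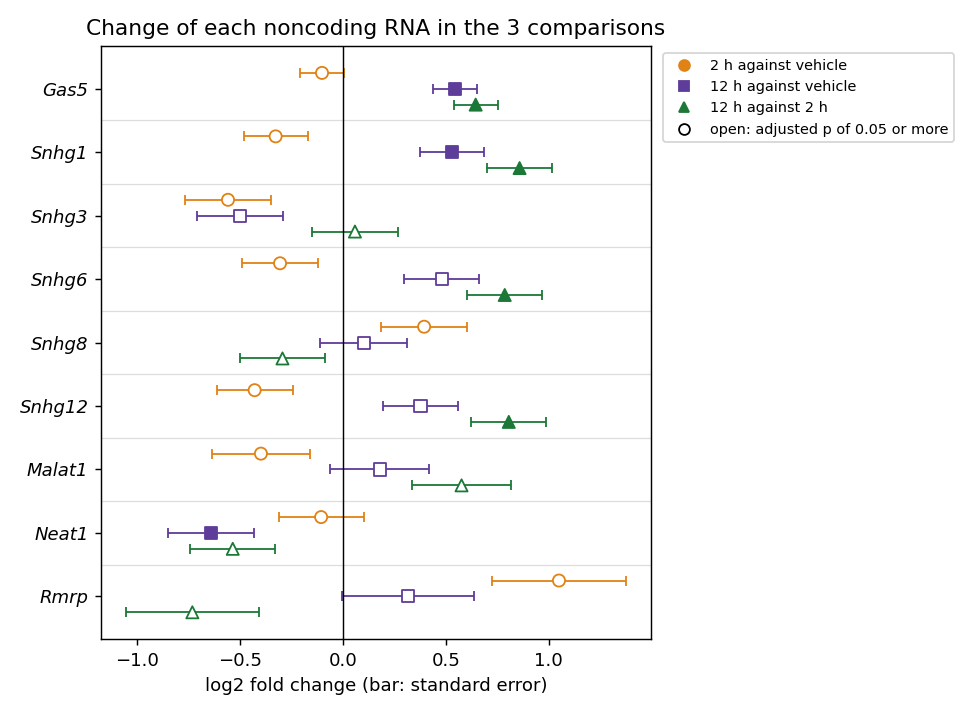
Log2 fold change of each of the 9 RNAs (horizontal axis, bars are standard errors) at 2 h against vehicle (circles), 12 h against vehicle (squares) and 12 h against 2 h (triangles), with filled symbols where the adjusted p was under 0.05. Gas5, Snhg1, Snhg6 and Snhg12 have filled triangles between 0.64 and 0.86, Neat1 has a filled square at -0.64, and no circle is filled.

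Counted over the set, 0 of 9 members were called at 2 h, where 15.2% of all genes tested were called (9.91% higher and 5.25% lower). At an unadjusted p under 0.05, 2 members (Snhg3 and Rmrp) passed at 2 h, against 29.7% of all genes, and DESeq2 called Rmrp, with 18.9% of all genes. With the replicate block, 1 member was higher (Rmrp) and 2 were lower (Snhg1 and Snhg3) at 2 h, where that fit called 29.1% of all genes (16.4% higher and 12.7% lower). At 12 h, 2 members were higher (Gas5 and Snhg1) against 21.8% of all genes, and 1 was lower (Neat1) against 21.5%, so that 3 of 9 were called where 43.3% of all genes were. With the block, 3 were higher and 2 lower, against 27.8% and 27.5% of all genes. Between 2 h and 12 h, 4 members were higher (Gas5, Snhg1, Snhg6 and Snhg12) where 15.2% of all genes were higher, and 0 were lower where 18.9% were (34.1% in either direction). DESeq2 called 2 members lower in that comparison, Neat1 and Rmrp, as did the block, and both fits called 5 higher, adding Malat1. Over all genes DESeq2 called 16.3% higher and 20.1% lower there, and the block 23.3% and 25.2%. At an unadjusted p under 0.05, 5 members passed at 12 h against 51.6% of all genes and 6 between 2 h and 12 h against 45.3%.

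The groups did not overlap for 6 members at 2 h, where this held for 55.8% of all genes tested, for 6 at 12 h (76.8%) and for 7 between 2 h and 12 h (69.0%). The median log2FC of the 9 members was -0.31 at 2 h, 0.32 at 12 h and 0.58 between them, where the medians of all genes were -0.01, 0.02 and 0.01. Single libraries moved these medians, to -0.18 at 2 h without TGFb2h replicate 2 and -0.19 without veh replicate 1, to 0.18 at 12 h without veh replicate 2 or TGFb12h replicate 1, and to 0.27 between the times without TGFb2h replicate 2. With total counts the median at 12 h was 0.19. An absolute log2FC above 1 together with an adjusted p under 0.05 was reached by 0 members in each comparison and by 6.25%, 19.6% and 14.4% of all genes. The scaling moved all genes, since with total counts in place of TMM factors the median log2FC of all genes was -0.12 at 2 h and -0.11 at 12 h, and the calls over all genes went from 1098 higher and 582 lower to 854 and 974 at 2 h and from 2414 and 2385 to 1831 and 3045 at 12 h. Under that scaling the directions of the called members were kept at 12 h, with log2FC of 0.41 for Gas5, 0.40 for Snhg1 and -0.77 for Neat1.

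Across the 6 libraries, which share 3 groups and 1 set of scaling factors, the levels of Gas5, Snhg1, Snhg6 and Snhg12 on the log2 scale went together, with Pearson's r between 0.863 and 0.997 for their 6 pairs, as a description. Malat1 went against Snhg8 (r = -0.908) and Rmrp (r = -0.821), and Snhg8 went with Rmrp (r = 0.876), values in which TGFb2h replicate 2 lies at an end for all 3. Among the 11080 genes tested, those whose levels were most like Gas5 were Atg9b (r = 0.996), Nkrf (0.995) and Fam171a1 (0.995). The closest to Malat1 were Atxn7l3b (0.998), Llph (0.996) and Dars (0.994), to Neat1 Ssc4d (0.995), Ppp2r5d (0.993) and Dnmt1 (0.993), and to Rmrp Fuca1 (0.990), Nfix (0.990) and Ago2 (0.986). With 6 libraries and this many genes such values are descriptions of these libraries.

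Levels of different RNAs can be set side by side only per length. Per kilobase of annotated exon, Rmrp and Malat1 led in veh with 7724 ± 2027 and 6558 ± 825 CPM per kb (SD, n = 2), and their libraries overlapped. At 2 h and 12 h the libraries of Rmrp, with means of 15980 and 9629 CPM per kb, lay above those of Malat1, with means of 4978 and 7421. Neat1 followed in veh with 99.3 ± 16.8 CPM per kb, then Snhg1 with 44.5 ± 5.84 and Gas5 with 43.6 ± 1.78, whose libraries overlapped on this length, then Snhg3 with 17.7 ± 1.25 and Snhg12 with 9.28 ± 1.93. At 12 h the libraries of Snhg1 (64.3 ± 6.75), Neat1 (63.7 ± 2.36) and Gas5 (63.5 ± 5.84) overlapped, and so did those of Snhg3 (12.5 ± 1.15) and Snhg12 (12.1 ± 0.269). The length matters for this order. The lengths are those of GENCODE exons, while the counts rest on UCSC exons, so lengths and counts may not match. The length of Snhg1, 2947 bases, equals its whole span, and that of Gas5 is 3760 of 4118 bases. With the longest transcript in place of all exons, the veh libraries of Gas5 (66.0 and 62.3 CPM per kb) lay above those of Snhg1 (52.7 and 43.7), and at 12 h Gas5 had a mean of 93.4 CPM per kb, with both libraries above those of Snhg1 and Neat1. Snhg6 and Snhg8 had no length in the annotation used.

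Counts per base of annotated exon differed by orders of magnitude. Rmrp had 106.9 to 414.8 counts per base and Malat1 75.1 to 181.9, Neat1 had 1.27 to 2.19, Gas5 0.665 to 1.55 and Snhg1 0.629 to 1.59, and Snhg3 and Snhg12 stayed under 1. Duplicates are stated to have been removed, and keeping single-end reads with distinct start positions on 1 strand would leave at most about 1 count per base. Rmrp and Malat1 were far above that in all 6 libraries, and what this means for their folds was not tested.

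**Figure D3:**
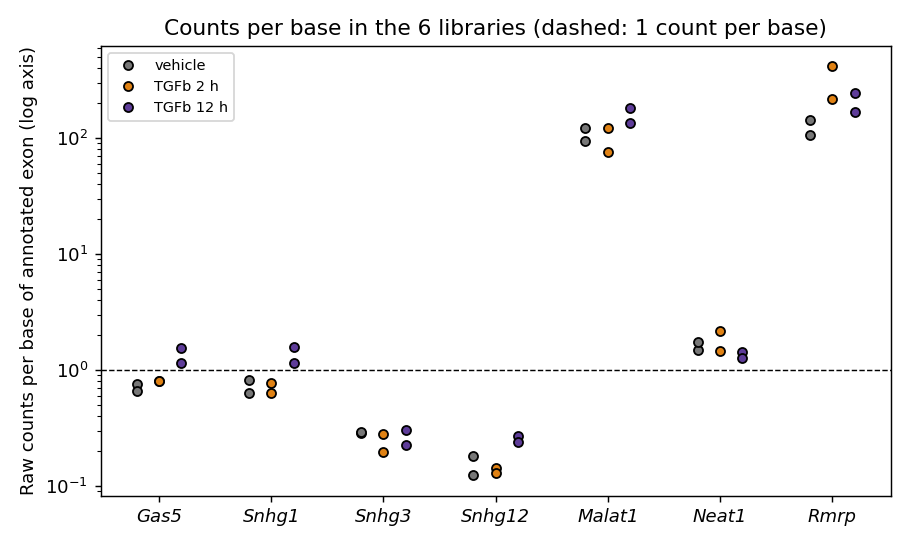
Raw counts per base of annotated exon (log axis) for the 7 RNAs with an annotated length, with a point for each library. Counts rest on UCSC exons and lengths on GENCODE exons, and the dashed line is at 1 count per base. Rmrp and Malat1 lie above 75 in every library, Neat1 lies between 1.27 and 2.19, and Gas5 and Snhg1 pass 1 at 12 h.

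Companion genes were described by lists made up with results of these data known, and are given by counts and medians beside those of all genes (a median log2FC of -0.01 at 2 h and 0.02 at 12 h). Fewer genes were called with 1 veh or 12 h library left out, and at 12 h 14.3% of all genes were higher and 15.9% lower without veh replicate 1, 14.8% and 15.7% without veh replicate 2, 12.8% and 13.5% without TGFb12h replicate 1, and 11.6% and 14.1% without TGFb12h replicate 2. Among other noncoding snoRNA hosts, 6 of the 15 listed were tested, and 2 were higher and 0 lower at 12 h (median log2FC 0.17), where 21.8% and 21.5% of all genes were. The median was 0.34 without veh replicate 1, 0.04 without veh replicate 2 and 0.04 with total counts. Those called were Snhg17, which rose from 36.9 ± 1.82 to 85.0 ± 0.827 CPM (log2FC 1.20, SE 0.114, adjusted p = 0.000348) and kept its call in every alternative, and Snhg16, listed as 1810032O08Rik (0.71, adjusted p = 0.0147), which was not called without veh replicate 1 or 2 or TGFb12h replicate 2. Zfas1, Snhg7, Snhg20 and Dancr had log2FC between -0.02 and 0.20 at 12 h and were not called. At 2 h 0 of these 6 were called, where 15.2% of all genes were.

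Of 37 protein-coding genes that host snoRNAs, 6 were higher and 1 lower at 12 h (median 0.19), against 21.8% and 21.5% of all genes, and 10 were higher and 1 lower with the replicate block, against 27.8% and 27.5%. The median rested on single libraries, at -0.01 without TGFb12h replicate 2 and 0.32 without TGFb12h replicate 1, and was 0.06 with total counts. Ppan, a ribosome assembly factor, rose most, from 31.8 ± 2.20 to 86.4 ± 10.6 CPM (log2FC 1.44, SE 0.133, adjusted p = 0.000321). The others called higher were the snoRNP proteins Nop56 (1.07), Nop58 (0.67) and Dkc1 (0.58) and the ribosomal proteins Rpl3 (0.54) and Rps12 (0.50). The ribosomal protein gene Rpl5 was lower (-0.46, SE 0.131, adjusted p = 0.0278), a call lost without veh replicate 1 or 2 or TGFb12h replicate 1. The number called higher was 4 without veh replicate 1 or 2 (14.3% and 14.8% of all genes), 5 without TGFb12h replicate 1 (12.8%) and 3 without TGFb12h replicate 2 (11.6%). At 2 h 0 of the 37 were called (15.2% of all genes), and 3 higher and 4 lower with the block (16.4% and 12.7%).

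Proteins that bind and assemble snoRNAs were mostly higher at 12 h where they were called. Of 17 listed, 11 were higher and 1 lower at 12 h, with a median log2FC of 0.70, where 21.8% of all genes were higher and 21.5% lower with a median of 0.02. The H/ACA proteins Gar1 (1.35), Nop10 (1.22), Nhp2 (0.83) and Dkc1 (0.58) rose, as did the box C/D proteins Nop56 (1.07), Snu13 (0.70) and Nop58 (0.67) and the assembly factors Znhit6 (1.18), Shq1 (0.85), Ruvbl2 (0.84) and Nufip1 (0.55). Gar1, at 3.43 ± 1.45 CPM in veh and 8.70 ± 1.42 at 12 h, had an SE of 0.339 and an adjusted p of 0.0183, and its call was lost without veh replicate 1 or either 12 h library. Pih1d1, a subunit of the R2TP assembly complex, was lower (-0.47, adjusted p = 0.0336, lost without veh replicate 2 or either 12 h library). The number called higher was 9 with total counts (16.5% of all genes), 6 without veh replicate 1 (14.3%), 7 without TGFb12h replicate 1 (12.8%) and 6 without TGFb12h replicate 2 (11.6%), and the median stayed between 0.57 and 0.80 with total counts or any 1 library left out. Nop56, Nop58 and Dkc1 stand in both lists.

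For nonsense-mediated decay, which removes many host RNAs, 10 factors were tested, and 2 of them were called at 2 h, against 15.2% of all genes. There the helicase Upf1 was higher (log2FC 0.55, SE 0.110, adjusted p = 0.0210) and the kinase Smg1, which phosphorylates it, was lower (-0.51, SE 0.109, adjusted p = 0.0262). Both calls were lost when only the 2 groups were fitted and when any 1 veh or 12 h library was left out, and that of Upf1 also without TGFb2h replicate 2, while the block called 2 higher and 2 lower (16.4% and 12.7% of all genes). At 12 h 2 were higher and 3 lower, against 21.8% and 21.5% of all genes, the lowest being Upf3a (-0.71, SE 0.112, adjusted p = 0.00285). With total counts 0 were higher and 4 lower, where 16.5% and 27.5% of all genes were. Without veh replicate 2 or TGFb12h replicate 1, 0 were higher (14.8% and 12.8% of all genes) and 2 lower (15.7% and 13.5%), and without TGFb12h replicate 2, 0 and 1 (11.6% and 14.1%). The call of Upf3a held in every alternative.

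Of 10 paraspeckle proteins, which assemble on Neat1, 2 were lower at 12 h, Ewsr1 (-0.41, SE 0.132, adjusted p = 0.0452) and Rbm14 (-0.39), and 0 higher, against 21.5% and 21.8% of all genes, with a median of -0.17. That median rested on single libraries, at 0.00049 without TGFb12h replicate 2, -0.09 without veh replicate 2 and -0.37 without TGFb12h replicate 1, and was -0.30 with total counts. Pspc1, a core paraspeckle protein, was higher at 2 h (0.62, SE 0.162, adjusted p = 0.0496). That call was lost with total counts, upper-quartile factors or the members left out of library sizes. It was also lost with only the 2 groups fitted and when any 1 of the 6 libraries was left out. Pspc1 was the 1 of the 10 called at 2 h, where 15.2% of all genes were. With the block 2 were higher (16.4% of all genes). The number lower at 12 h was 1 without veh replicate 1 or 2 (15.9% and 15.7% of all genes) and 0 without TGFb12h replicate 1 or 2 (13.5% and 14.1%), and the call of Ewsr1 was lost without veh replicate 1 or either 12 h library. Of 12 nuclear speckle proteins the splicing factor Srsf7 was higher at 12 h (0.72, SE 0.141, adjusted p = 0.00693, and 0.0541 without TGFb12h replicate 1) and 0 were lower (median 0.04, from -0.0046 without TGFb12h replicate 1 to 0.16 without veh replicate 1, and -0.08 with total counts), against 21.8% and 21.5% of all genes, with 2 higher in the fit with the block (27.8%).

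Of 9 proteins of RNase MRP and RNase P tested, Pop4 was higher (0.45, SE 0.126, adjusted p = 0.0278) and Pop5 lower (-0.96, SE 0.203, adjusted p = 0.00929) at 12 h, against 21.8% and 21.5% of all genes. The call of Pop4 was lost with total counts and when any 1 veh or 12 h library was left out, and that of Pop5 without TGFb12h replicate 1. At 2 h, where Rmrp had its highest level, 0 of the 9 were called and their median log2FC was -0.22 (-0.14 without veh replicate 2 and -0.33 with total counts), where 15.2% of all genes were called, while 2 were lower with total counts (8.79% of all genes) and by DESeq2 (7.17%) and 3 with the block (12.7%). Between 2 h and 12 h 4 were higher (Rpp38, Rpp40, Pop4 and Rpp14) and 1 lower (Pop5), where 15.2% of all genes were higher and 18.9% lower, and leaving out any 1 library brought the number higher to between 0 and 2, where 5.34% to 15.4% of all genes were.

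Other noncoding RNAs went both ways. Of 10 tested, 0 were higher and 3 lower at 2 h (Kcnq1ot1, Pvt1 and Ftx), with a median log2FC of -0.62, against 9.91% and 5.25% of all genes, and 2 were higher and 6 lower with the block, against 16.4% and 12.7%. Kcnq1ot1, the antisense RNA of an imprinted domain, fell from 63.6 ± 8.23 to 33.7 ± 4.39 CPM (log2FC -0.91, SE 0.142, adjusted p = 0.00804, and 0.0506 without veh replicate 2). The number lower at 2 h was 1 without veh replicate 1 (1.14% of all genes), 0 without veh replicate 2 (1.49%) and 2 to 4 without any other library (2.23% to 8.61%). At 12 h 2 were higher, the microRNA hosts Mir17hg and Mir22hg, and 4 lower, Dleu2, Jpx, Ftx and Kcnq1ot1, where 21.8% and 21.5% of all genes were. Mir17hg had 5.67 ± 1.54 CPM in veh and 15.9 ± 5.59 at 12 h (1.48, SE 0.332, adjusted p = 0.0117, lost without veh replicate 2 or TGFb12h replicate 1), and Dleu2 fell from 20.7 ± 2.95 to 6.86 ± 1.94 CPM (-1.59, SE 0.270, adjusted p = 0.00382, held in every alternative). Without TGFb12h replicate 1 the 12 h counts were 0 higher and 2 lower (12.8% and 13.5% of all genes), and they were 1 and 2 both without veh replicate 2 (14.8% and 15.7%) and without TGFb12h replicate 2 (11.6% and 14.1%).

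**Figure D4:**
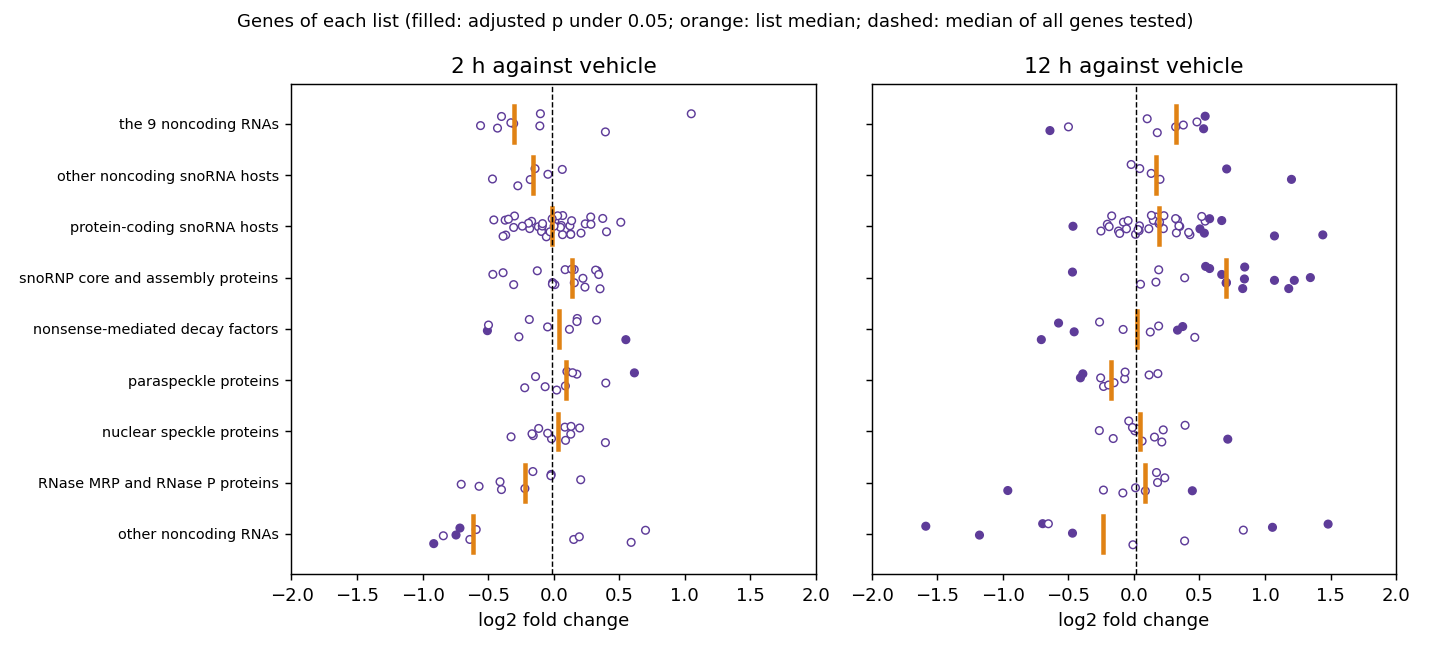
Log2 fold change of each tested gene (points) at 2 h (left) and 12 h (right) against vehicle for the 9 noncoding RNAs and the companion lists, with filled points where the adjusted p was under 0.05, orange bars at the median of each list and the dashed line at the median of all genes tested. At 12 h the snoRNP proteins have a median of 0.70 with 11 of 17 filled above 0, and the paraspeckle proteins have a median of -0.17, which is 0.00049 without TGFb12h replicate 2 and -0.37 without TGFb12h replicate 1.

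On NCBIM37, Gas5 lies at chr1:162964553-162968670 (plus strand) with 9 annotated snoRNAs in its span, Snhg1 at chr19:8797986-8800932 (plus) with 8, Snhg3 at chr4:131903929-131909601 (minus) with 2 and Snhg12 at chr4:131864593-131866939 (plus) with 4. Malat1 lies at chr19:5795690-5802671 and Neat1 at chr19:5824708-5845478, both on the minus strand. Malat1 and Neat1 are thus neighbors with annotated starts 42.8 kb apart, and at 12 h Neat1 fell while Malat1 had a log2FC of 0.18. Snhg3 and Snhg12 also lie near each other on chromosome 4, and Snhg12 rose from 2 h to 12 h while Snhg3 had a log2FC of 0.06.

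All 9 snoRNAs in Gas5 and all 8 in Snhg1 overlap an exon of some GENCODE transcript. The counts rest on UCSC exons, so which of these reads went to the host and which to a snoRNA was not tested. Of the snoRNAs annotated within Gas5, Snhg1, Snhg3 and Snhg12, 6 had rows of their own. Snord47 (sequence above) had 100 and 76 counts in veh, 80 and 23 in TGFb2h and 305 and 83 in TGFb12h, where Gas5 had 2499 to 5842. In raw counts, the veh values of Snord47 overlapped those of each treated group, while both 12 h values lay above both 2 h values. In Snhg12, Snora16a had 14 to 61 counts, Snora44 46 to 150 and Snora61 43 to 85, while Snord99, and Snord22 in Snhg1, were at 0 in all libraries. Snord87, which RefSeq places next to Snhg6, had 6 to 40 counts.

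The gene nearest to Gas5 by start site was Zbtb37, 427 bp away on the other strand and overlapping it. Zbtb37 was lower at 2 h (log2FC -0.80, SE 0.204, adjusted p = 0.0446, lost when only the 2 groups were fitted and without any 1 of the libraries other than TGFb2h replicate 1) and had a log2FC of -0.24 at 12 h, where Gas5 rose. Slc3a2, an amino acid transporter subunit whose start lies 127 bp from that of Snhg1 on the other strand, was higher at 12 h, as Snhg1 was (0.36, SE 0.109, adjusted p = 0.0366, lost with total counts and when any 1 veh or 12 h library was left out). Rcc1 starts 81 bp from Snhg3 on the same strand and overlaps it, so part of their reads may be shared, and it had a log2FC of 0.43 at 12 h (adjusted p = 0.110) against -0.50 for Snhg3.

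The other neighbors included Phactr4 by Snhg3 (-0.11 at 12 h), Snora16a within Snhg12 (0.21) and Frmd8 by Neat1 (0.19, and 0.46 at 2 h with an adjusted p of 0.0540), none of which was called against vehicle. Rmrp lies between Ccdc107, 158 bp away on the other strand and overlapping in the annotation (0.39, adjusted p = 0.113), and Arhgef39, 6.64 kb away, which fell from 7.73 to 0.441 CPM at 12 h (-4.09, SE 0.613, adjusted p = 0.00231). Serpinc1 by Gas5, Snord22 by Snhg1, Rab42 by Snhg12, Prss12 and Ndst3 by Snhg8, and Snord87 and Ppp1r42 by Snhg6 did not pass the filter, the last 4 being placed by gene order on GRCm38.p6.

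**Figure D5:**
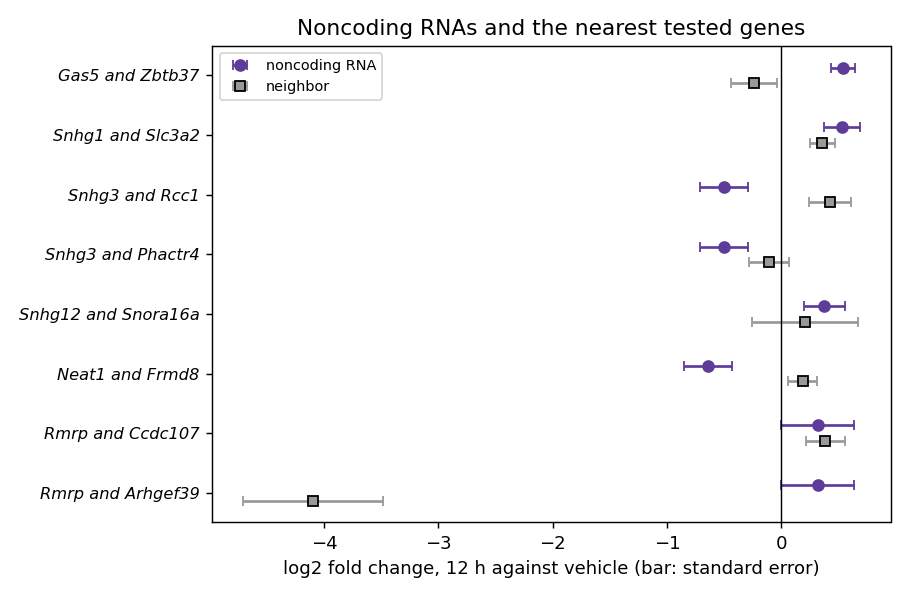
Log2 fold change at 12 h against vehicle (horizontal axis, bars are standard errors) of 6 of the noncoding RNAs (circles) and their nearest tested genes (squares). Snhg1 and Slc3a2 both lie above 0, Gas5 and Zbtb37 lie on opposite sides of 0, and Arhgef39 lies at -4.09 beside Rmrp at 0.32.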

How the data were processed

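Stranded total RNA of NMuMG cells was sequenced as single-end reads in 6 libraries. According to the methods of the study, the authors filtered the reads, aligned them with subjunc of Rsubread to mm9 (NCBIM37), kept unique alignments, removed duplicates with SAMtools 0.1.19 and counted reads strand-specifically over UCSC exons with featureCounts, discarding miRNAs. The deposited values are raw counts, with no normalization. Every column belonged to a labelled sample.

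Here, genes that reached 2 CPM in 2 or more libraries entered 1 fit of 3 groups with the quasi-likelihood test of edgeR 4.0.16 in R 4.3.3 with TMM factors. Tests were two-sided, Benjamini-Hochberg adjusted over all genes tested in a contrast and called at an adjusted p under 0.05. The SE is the absolute log2FC over the square root of F. Levels are TMM-scaled CPM (mean ± SD, n = 2), with 0.25 CPM added before logarithms for correlations. Depth was 14705886 to 23786993 counts, and intervals of shares cover counting error only. On simulated counts for 12 h against vehicle, the test called 100% of the 196 genes given a log2FC of 1.5, and 10 others, among 10933. It used 1 dispersion for all genes (biological coefficient of variation 0.148), so it does not cover uneven spread or the smaller folds reported here.

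Replicate numbers are not stated to mark a batch. Over 11080 genes, the deviations of same-numbered libraries from their group means correlated. The r was 0.708 for veh and TGFb2h, 0.263 for veh and TGFb12h and 0.392 for TGFb2h and TGFb12h. A fit with the replicate block was therefore set beside the unblocked one. With 2 libraries in a group the numbering may be arbitrary, and whether it marks a batch was not tested. Calls with the block thus use a pairing read from these same counts.

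Alternatives were DESeq2 1.42.0, limma-voom (limma 3.58.1), DESeq2 size factors, total counts, the members left out of library sizes, other filters on low counts, only the 2 groups compared, each library left out, a fold threshold and, added after seeing the data, upper-quartile factors. Where a group was left with 1 library, that library was assumed to vary like the others.

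Positions came from GENCODE on NCBIM37 (18958 genes matched by symbol, 1676 by synonym), and promoters and neighbors of Snhg6 and Snhg8 from RefSeq on GRCm38.p6. Named genes are the 10 members, of each list the called gene with the largest absolute log2FC in each direction at each time, the 2 neighbors of each member, the 3 genes most correlated with Gas5, Malat1, Neat1 and Rmrp, and Epcam, Cdh1, Krt8, Krt18 and markers at 0. Other list genes are named after their values were seen. The members and lists were chosen with earlier results of these data known. A list gene and a neighbor that this rule names are not reported here.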

Additional observations from a re-analysis of the deposited data

Results flagged for a closer look

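For 4 host RNAs the change against vehicle differed between the 2 times, by the test of 12 h against 2 h, which share the vehicle libraries (quasi-likelihood test of edgeR, adjusted by the Benjamini-Hochberg method), where 15.2% of all genes were called higher and 34.1% in either direction. The log2FC at 12 h exceeded that at 2 h by 0.64 for Gas5 (adjusted p = 0.00498), 0.86 for Snhg1 (adjusted p = 0.00720), 0.79 for Snhg6 (adjusted p = 0.0174) and 0.81 for Snhg12 (adjusted p = 0.0161). In each case both 12 h libraries lay above both 2 h libraries, where the groups did not overlap for 69.0% of all genes. All 4 calls were lost without TGFb12h replicate 1, with log2FC of 0.54 for Gas5, 0.74 for Snhg1, 0.65 for Snhg6 and 0.82 for Snhg12, where 14.6% of all genes were called in either direction. With 2 libraries in a group, no single library could be tested as an outlier.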

How the results depend on the processing

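The numbers of members called did not change with DESeq2 size factors, limma-voom, at least 10 counts in every library, the members left out of library sizes or upper-quartile factors. DESeq2 called 1 member higher at 2 h (11.7% of all genes), and 5 higher and 2 lower from 2 h to 12 h (16.3% and 20.1%), and leaving out the filter on low counts called 1 higher at 2 h (6.96% of all genes). With the replicate block, which pairs the libraries by number, 2 h gave 1 higher and 2 lower (16.4% and 12.7%), 12 h gave 3 and 2 (27.8% and 27.5%), and 12 h against 2 h gave 5 and 2 (23.3% and 25.2%). The block changed no call of a member beyond those given beside the results. Total counts left 1 higher and 2 lower at 12 h (16.5% and 27.5% of all genes), and only the 2 groups compared gave 2 lower there (25.4%). A fold threshold left 0 in every comparison. With each library left out in turn, 0 to 2 members were called in each direction at 2 h (4.49% to 11.3% of all genes higher and 1.14% to 8.61% lower), 0 to 2 in each direction at 12 h (11.6% to 24.5% and 13.5% to 25.2%), and from 2 h to 12 h 0 to 5 were higher (5.34% to 15.4%) and 0 to 3 lower (9.09% to 19.2%). Without TGFb12h replicate 1, 0 members were called in any comparison, where 8.18% of all genes were at 2 h, 26.4% at 12 h and 14.6% from 2 h to 12 h. The cause of these differences was not tested, apart from the fewer libraries.

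Of the log2FC of single members under alternatives, 7 changed sign, all of them uncalled, 16 lost and 25 gained a call, and 384 kept both. Leaving out each library moved Neat1 at 2 h between -0.42 and 0.13 (0.08 without veh replicate 2), Snhg8 at 12 h between -0.0026 and 0.18, and, from 2 h to 12 h, Snhg3 between -0.18 and 0.34 (-0.05 without TGFb12h replicate 1) and Snhg8 between -0.57 and 0.050 (the latter without TGFb2h replicate 2). With total counts Snhg8 at 12 h was -0.028. The host RNAs had 193 or more counts in every library.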
